A study of Homo sapiens with 11 samples.

Results

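The genes described here are 10 members of the Hippo pathway and its output: the angiomotins AMOT, AMOTL1 and AMOTL2, the kinase gene LATS2, the coactivator genes YAP1 and WWTR1, the DNA-binding partner TEAD4 and the target genes CCN1, CCN2 and ANKRD1. They were chosen by name from 20249 genes named on the array, with their values in these samples already known. Every value of theirs is therefore a description, and the threshold calls given for them below are not an independent test. AMOT and AMOTL1 had 2 probes each and the other 8 genes 1 probe each, which gave 12 of the 42405 probes. All 12 probes are accounted for.

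The arrays measured RNA of A549 and HCC827, established human lung adenocarcinoma cell lines, that had been infected with the retroviral vector pMXs-Neo and selected with G418. Mock cells carried the empty vector, and cells labelled TRIM58-WT carried the same vector with the coding sequence of wild-type TRIM58, a RING-type E3 ubiquitin ligase gene, with a FLAG tag. A549 had 3 mock replicates on 4 arrays, since mock arrays 1-1 and 1-2 bear the label of the same control cell and were averaged, and 3 TRIM58-WT replicates. HCC827 had 2 mock and 2 TRIM58-WT replicates. The methods state that clones were isolated after selection, and the paper's growth assays name numbered A549 clones but crude HCC827 transfectants. The labels do not say which arrays came from separate clones or separate cultures. The spread between replicates, which is all the p-values measure, may therefore be technical.

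The Hippo pathway passes signals on cell density, polarity and mechanical tension to a kinase cascade that ends in LATS1 and LATS2. LATS kinases phosphorylate the coactivators YAP and TAZ, the latter encoded by WWTR1, and hold them in the cytoplasm, and angiomotins bind YAP and TAZ at cell junctions and on actin filaments. Unphosphorylated YAP and TAZ enter the nucleus, bind TEAD factors and switch on genes such as CCN1, CCN2 and ANKRD1. In lung adenocarcinoma the pathway is known mainly for its control of growth and of cell contact. Much of this control acts on protein, which arrays of RNA do not measure.

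TEAD factors recognise the letters GGAATG. AP-1 factors often occupy the same elements, and their motif was taken here as TGANTCA, where N is any base. Both were searched on both strands in the 250 bases before the annotated transcript starts in RefSeq (GRCh38.p14), where 8 of the 10 genes had an entry and AMOTL2 and WWTR1 had 2 starts each. CCN1 and TEAD4 had no entry. The upstream sequences of CCN2, ANKRD1 and the inner start of AMOTL2 are shown because CCN2 and ANKRD1 held several TEAD motifs and AMOTL2 is the angiomotin with a motif. They are written 5′ to 3′ along the gene, all on the minus strand, with motif letters in capitals.
CCN2, chr6:131951373-131951622: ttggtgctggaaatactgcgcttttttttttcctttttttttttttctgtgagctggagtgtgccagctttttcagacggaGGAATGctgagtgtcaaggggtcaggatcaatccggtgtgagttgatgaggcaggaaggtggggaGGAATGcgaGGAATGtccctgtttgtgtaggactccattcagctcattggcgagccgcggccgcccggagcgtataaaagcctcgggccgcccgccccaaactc
ANKRD1, chr10:90921088-90921337: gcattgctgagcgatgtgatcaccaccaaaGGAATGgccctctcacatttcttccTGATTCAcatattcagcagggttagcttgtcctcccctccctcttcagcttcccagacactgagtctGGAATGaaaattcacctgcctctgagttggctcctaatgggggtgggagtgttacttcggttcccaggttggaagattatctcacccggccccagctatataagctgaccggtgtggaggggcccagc
AMOTL2, chr3:134374448-134374697: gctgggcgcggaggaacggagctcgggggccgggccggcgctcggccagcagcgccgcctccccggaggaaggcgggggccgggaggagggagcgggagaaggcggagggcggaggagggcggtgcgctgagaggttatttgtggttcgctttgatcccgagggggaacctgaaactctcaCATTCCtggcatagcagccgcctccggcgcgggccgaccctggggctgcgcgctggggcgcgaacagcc

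The CCN2 sequence held 3 TEAD motifs, which began 169, 104 and 95 bases upstream of the start, and no AP-1 motif. The ANKRD1 sequence held 2 TEAD motifs, at 220 and 128 bases, with a match to the AP-1 letters, TGATTCA, between them at 195 bases. YAP1 held 1 TEAD motif at 162 bases and the inner start of AMOTL2 held 1 at 69 bases, on the opposite strand. AMOT, AMOTL1, LATS2, both starts of WWTR1 and the outer start of AMOTL2 held neither motif. Of 35116 promoter sequences of the same length, 11.9% held at least 1 TEAD motif, 0.94% held 2 or more, 0.0826% held 3 or more, and 6.57% held an AP-1 motif. A match of letters is not evidence of a bound site, and the absence of a match covers only these 250 bases.

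**Figure D1:**
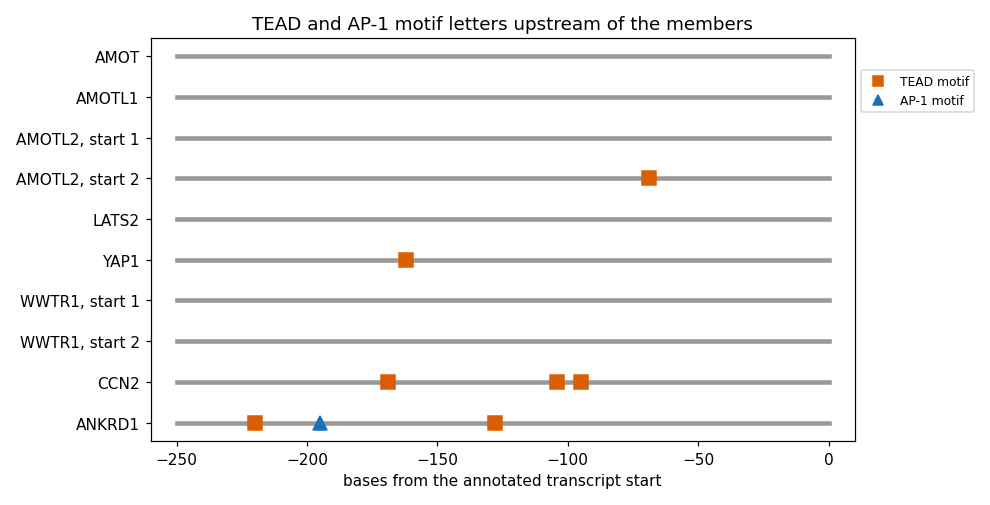
Positions of the TEAD motif (orange squares) and the AP-1 motif (blue triangle) in the 250 bases before each annotated transcript start, for the 8 genes with an entry. The x axis is the distance from the start in bases, and each grey line is 1 start. CCN2 has 3 TEAD motifs and ANKRD1 has 2, while 6 of the 10 starts have neither motif.

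The level of a probe is given as the log2 of its signal minus the 75th percentile of all probes on the array, so that 0 is the 75th percentile. Levels are compared between samples for 1 probe and never between probes. The 75th percentile itself, a measure of overall brightness, was 56.6 to 62.5 on A549 mock array 3 and TRIM58-WT arrays 2 and 3 and 90.5 to 125 on the other 8 arrays. Between 40.1% and 49.99% of probes were well above background, with A549 TRIM58-WT array 1 the highest, and no spot was saturated. The median probe of that array stood at -2.47, against -3.51 to -3.14 on all other arrays, so its dim probes read high. The part of this in A549 changes near background was not tested. The A549 arrays lay on 2 slides that both held mock and TRIM58-WT arrays, and the 4 HCC827 arrays lay on slide 1. Subtracting each array's median in place of its 75th percentile moved the A549 changes of all probes by -0.37 in the median, and so turned the small A549 changes of AMOTL1, AMOTL2 and YAP1 below from above 0 to -0.25, -0.30 and -0.27, while WWTR1 (0.21), CCN1 (1.296) and CCN2 (1.18) stayed above 0.

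The TRIM58 probe, A_33_P3249414, did not separate the arrays by their labels. The methods state that the clones were tested for TRIM58 protein by western blotting and by staining, which the array values cannot check. A549 mock replicate 3 was the sole array on which it cleared background, and none of the arrays labelled TRIM58-WT did. Its level there was -0.71 against -5.33 to -5.18 on the other 3 mock arrays. Where this probe lies relative to the cloned coding sequence was not analysed here. Directions below are therefore those of the arrays labelled TRIM58-WT, and the A549 differences of the probes tested are also given without mock replicate 3. The line labels were borne out by EGFR, which HCC827 carries in extra copies. Its level was -0.41 to 0.24 on the A549 mock arrays and 4.31 and 4.22 on the HCC827 mock arrays. Endothelial markers were at background on all arrays (0 of 5 well above background), and of 5 blood cell markers 1 to 3 cleared background throughout a group. Of 7 epithelial markers, all 7 were well above background on every HCC827 array, 5 on every A549 mock array and 3 on every A549 TRIM58-WT array. Their summed signal, relative to the 75th percentile, was 1018 to 1314 in A549 mock and 551 to 661 in A549 TRIM58-WT. That of 8 mesenchymal markers was 28.8 to 190 and 119 to 393. The highest mock sum was that of mock replicate 3, where VIM read 7.48 against 4.65 to 4.86 on the other 3 mock arrays. LUM, another of the 8, went the other way. It read 0.07, 0.07, -0.07 and -4.18 on the mock arrays and -4.80 to -4.55 on the TRIM58-WT arrays. The part of these marker shifts in the A549 results below was not tested.

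AMOT, the founding angiomotin, differed most in HCC827. Its probe A_24_P344961 stood at -1.41 and -1.36 on the HCC827 mock arrays, where it was well above background, and at -4.80 and -5.06 on the HCC827 TRIM58-WT arrays, where it was not. The TRIM58-WT values were at background, so the difference is a bound, with AMOT at least 3.96-fold lower in HCC827 TRIM58-WT. The measured means differed by -3.55 on the log2 scale (SE 0.15). In bulk RNA, fewer cells that express a gene and less RNA per cell cannot be told apart.

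In A549, AMOT was at background throughout. The same probe read -5.01, -5.09, -4.57 and -4.46 on mock arrays 1-1, 1-2, 2 and 3, and -4.82, -4.48 and -4.40 on TRIM58-WT arrays 1, 2 and 3. These values overlapped each other and those of HCC827 TRIM58-WT, and HCC827 mock alone stood apart, at least 2.84-fold above A549 mock. The AMOT change in A549 minus that in HCC827 was 3.67 (log2, SE 0.32), with no measured level in A549 behind it.

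The second AMOT probe, A_33_P3347397, which the array lists under another RefSeq transcript of AMOT, cleared background on none of the 11 arrays. The HCC827 mock arrays read -2.79 and -3.13 and the HCC827 TRIM58-WT arrays -4.08 and -4.92, the same order as the first probe. In A549 it ranged from -4.92 to -3.34 in mock and from -4.08 to -2.04 in TRIM58-WT, and these ranges overlapped. No level can be read from this probe.

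AMOTL1, a paralogue that also binds YAP and TAZ, gave no clear difference with TRIM58-WT, and its probes disagreed. Probe A_33_P3271196 was well above background on all arrays and averaged -0.40 ± 0.52 (SD, n = 3) in A549 mock, -0.28 ± 0.60 (n = 3) in A549 TRIM58-WT, -1.55 ± 0.15 (n = 2) in HCC827 mock and -1.54 ± 0.46 (n = 2) in HCC827 TRIM58-WT. The mock and TRIM58-WT values overlapped in both lines, with differences of 0.12 (SE 0.39) in A549, or 0.41 without mock replicate 3, and 0.02 (SE 0.26) in HCC827. Within A549 the values followed array brightness: mock array 3 and TRIM58-WT arrays 2 and 3 read 0.18, 0.10 and 0.03, against -0.98 to -0.55 on the other 4 arrays. The part of brightness in this split was not tested.

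Between the mock groups, AMOTL1 by this probe was 1.15 higher in A549 (log2, SE 0.33), and 0.86 higher, and no longer called, without mock replicate 3. The other probe, A_24_P401768, was well above background on 2 of 4 A549 mock arrays and on no other array. It read -3.16, -2.08, -2.39 and -2.83 on the A549 mock arrays and -3.68, -4.64 and -4.73 on the A549 TRIM58-WT arrays, without overlap. As a bound, this was at least 1.01-fold lower in TRIM58-WT, so no size can be given.

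AMOTL2, the angiomotin that is itself a reported YAP target, was well above background on every array. It read 4.21 and 4.04 in HCC827 mock and 4.80 and 4.54 in HCC827 TRIM58-WT. Both TRIM58-WT values lay above both mock values, by 0.55 on average (SE 0.16), a 1.46-fold difference.

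In A549, AMOTL2 read 4.09, 3.97, 4.16 and 4.90 on the mock arrays and 3.81, 4.80 and 4.69 on the TRIM58-WT arrays. These groups overlapped, with a mean difference of 0.07 (SE 0.36) that became 0.34 without mock replicate 3 and -0.09 with TRIM58-WT replicates 2 and 3 averaged. The 3 high values were again those of the 3 dimmer arrays. By mean level the groups ran HCC827 mock (4.12), A549 mock (4.36), A549 TRIM58-WT (4.43) and HCC827 TRIM58-WT (4.67), and each pair of neighbours in this order overlapped.

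LATS2, the kinase that phosphorylates YAP and TAZ and is also one of their targets, was higher in HCC827 TRIM58-WT. It read -1.34 and -1.35 in HCC827 mock and -0.17 and -0.94 in HCC827 TRIM58-WT. The difference of 0.79 (SE 0.29) was set largely by replicate 1 of TRIM58-WT, and it ranged from 0.22 to 1.18 over the alternatives run. In A549, LATS2 averaged -0.73 ± 0.23 in mock and -0.75 ± 0.24 in TRIM58-WT (SD, n = 3 each), and the groups overlapped. Their difference was -0.03 (SE 0.20), or -0.11 without mock replicate 3.

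YAP1, the main coactivator of the pathway, hardly differed with TRIM58-WT in either line. It averaged 2.05 ± 0.08 in A549 mock, 2.14 ± 0.20 in A549 TRIM58-WT (n = 3 each), 2.78 ± 0.12 in HCC827 mock and 2.88 ± 0.24 in HCC827 TRIM58-WT (n = 2 each). Mock and TRIM58-WT overlapped in both lines, with differences of 0.09 (SE 0.17) in A549, or 0.11 without mock replicate 3, and 0.09 (SE 0.18) in HCC827. What separated its levels was the line, with A549 mock minus HCC827 mock at -0.74 (log2, SE 0.16).

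WWTR1, which encodes TAZ, was higher in TRIM58-WT in both lines without overlap. Neither difference reached 2-fold, and 31.0% of all probes tested in A549 and 56.7% in HCC827 did not overlap either. In A549 it read 1.37, 1.22, 1.48 and 2.00 on the mock arrays and 2.13, 2.14 and 2.23 on the TRIM58-WT arrays. The difference was 0.58 (SE 0.22), a 1.49-fold difference, and 0.78 without mock replicate 3, the mock array nearest to TRIM58-WT.

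In HCC827, the mock arrays read 2.42 and 2.56 for WWTR1 and the TRIM58-WT arrays 2.97 and 2.78, a difference of 0.39 (SE 0.15). The A549 change minus the HCC827 change was 0.19 (SE 0.31). Ordered by level, the groups ran A549 mock, A549 TRIM58-WT, HCC827 mock and HCC827 TRIM58-WT, and no 2 neighbouring groups overlapped. Within slides, the A549 difference was 0.71 on slide 1 and 0.57 on slide 2.

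TEAD4, a DNA-binding partner of YAP and TAZ, showed no common direction. It read 1.51, 1.53, 1.81 and 2.26 on the A549 mock arrays and 1.57, 2.57 and 2.62 on the A549 TRIM58-WT arrays, which overlapped, with the 3 dimmer arrays highest. The A549 difference was 0.39 (SE 0.35), or 0.59 without mock replicate 3. The HCC827 mock arrays read 1.99 and 2.00 and the TRIM58-WT arrays 1.84 and 1.88, a difference of -0.13 (SE 0.13).

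CCN1, formerly CYR61, a secreted matricellular protein and a standard readout of YAP and TAZ, was higher in TRIM58-WT in both lines. In A549 it read 2.06, 2.04, 2.16 and 3.64 on the mock arrays and 3.88, 4.52 and 4.45 on the TRIM58-WT arrays. All TRIM58-WT values lay above all mock values, although mock replicate 3 came within reach of TRIM58-WT replicate 1. The difference was 1.67 (SE 0.46), or 3.17-fold, and 2.18 without mock replicate 3.

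In HCC827, the mock arrays read 6.88 and 6.99 for CCN1 and the TRIM58-WT arrays 7.99 and 7.63, again without overlap, a difference of 0.87 (SE 0.18) or 1.83-fold. A549 mock minus HCC827 mock was -4.32 (log2, SE 0.52), or 19.9-fold lower in A549, and -4.83 without A549 mock replicate 3. Even the highest A549 value lay below the lowest HCC827 value. The A549 change exceeded the HCC827 change by 0.79 (SE 0.65).

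CCN2, formerly CTGF, the connective tissue growth factor gene whose upstream sequence with 3 TEAD motifs is shown above, came above background only in A549 TRIM58-WT. It read -3.26, -3.41, -3.48 and -2.56 on the A549 mock arrays, none of them well above background. On the A549 TRIM58-WT arrays it read -1.07, -1.72 and -1.93, well above background on 3 of 3. As a bound, CCN2 was at least 2.49-fold higher in A549 TRIM58-WT.

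The measured CCN2 means in A549 differed by 1.55 (SE 0.33). The difference was 1.84 without mock replicate 3, and 2.30 on slide 1 and 1.16 on slide 2. No HCC827 array showed CCN2 above background, with readings of -4.74 and -5.32 for mock and -3.34 and -4.14 for TRIM58-WT. CCN2 was at background in both mock groups, so no difference between the lines could be measured in the control cells.

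ANKRD1, a nuclear ankyrin repeat gene and another standard readout, stayed near background. No A549 array had it above background, where the mock values were -5.23, -5.05, -5.10 and -4.55 and the TRIM58-WT values -3.83, -4.56 and -4.57. In HCC827 it was well above background on 1 of 2 arrays of each group, with -2.73 and -2.88 for the mock arrays against -2.90 and -3.16 for TRIM58-WT, a difference of -0.22. No A549 level could be measured for this gene.

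**Figure D2:**
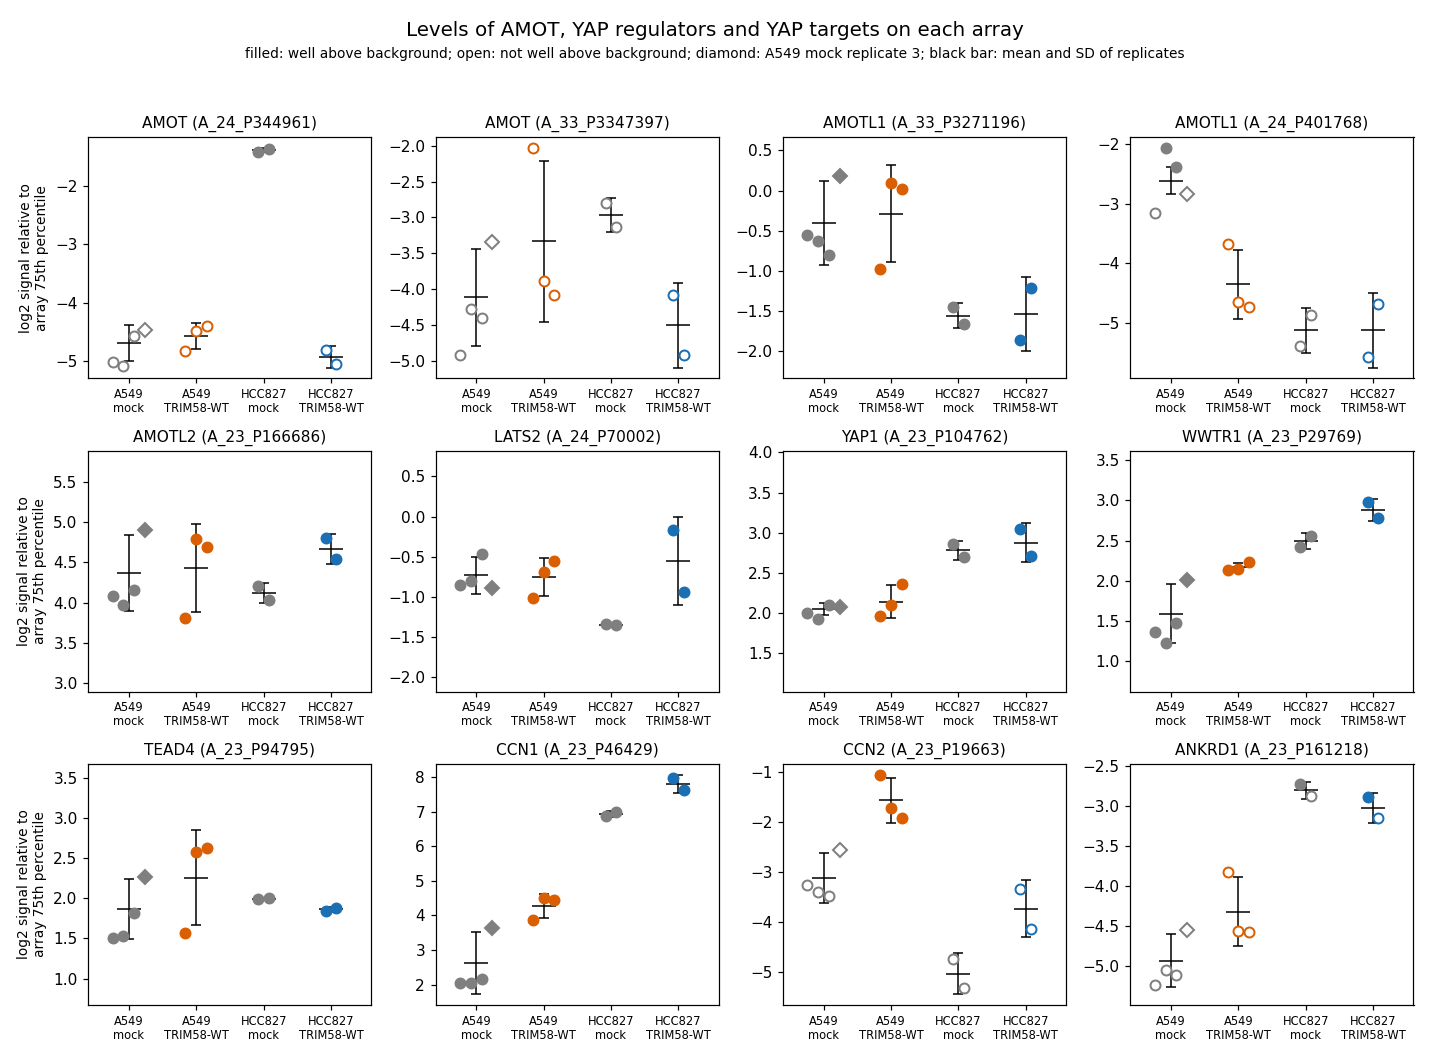
Level of each of the 12 probes on each of the 11 arrays, as log2 signal relative to the 75th percentile of the array, in the 4 groups (grey, mock; orange, A549 TRIM58-WT; blue, HCC827 TRIM58-WT). Filled points are well above background and open points are not, diamonds mark A549 mock replicate 3, and black bars give the mean and SD of the replicates (n = 3 in A549, with arrays 1-1 and 1-2 averaged, and n = 2 in HCC827). AMOT (A_24_P344961) is filled in HCC827 mock alone, and CCN2 in A549 TRIM58-WT alone.

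Of the 12 probes, 8 were bright enough to be tested in each comparison of a pair of groups, and 9 in the difference between lines. Called probes had an adjusted p under 0.05 from limma, a linear model that shares the spread across probes, and a change of at least 2-fold. In A549, 1 of the 8 was called, CCN2, where 6.92% of all tested probes were called (3.49% higher and 3.43% lower), and 3 of 8 did not overlap between groups (WWTR1, CCN1 and CCN2), against 31.0% of all. In HCC827, 1 of the 8 was called, AMOT, where 0.884% of all were called (0.291% higher and 0.593% lower), and 6 of 8 did not overlap (AMOT, AMOTL2, LATS2, WWTR1, TEAD4 and CCN1), against 56.7% of all. Between the mock groups, 3 of 8 were called (AMOT, AMOTL1 and CCN1), against 30.3% of all (14.1% higher and 16.2% lower), and 6 of 8 did not overlap, against 69.7%. For the A549 change minus the HCC827 change, called on adjusted p alone, 1 of 9 tested was called, AMOT, against 3.86% of all (1.83% higher and 2.03% lower). The members were chosen on these contrasts, and AMOT and CCN2 passed the brightness filter only through the group in which they were high. These calls therefore describe the members and do not test them.

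The CCN2 call was lost without mock replicate 1 (difference 1.45), without mock replicate 2 (1.37) and without each TRIM58-WT replicate (1.299 to 1.73). It was also lost with the replicate number as a block, with no filter on dim probes, with TRIM58-WT replicates 2 and 3 averaged (1.68) and with the median subtracted (1.18), and in 10 of 19 alternatives in all. CCN1 was called as well without mock replicate 3, and in 5 of 20 alternatives in all. The AMOT call in HCC827 was lost without either mock replicate (-3.57 and -3.53), with the replicate number as a block and with no filter on dim probes. With normexp background correction, which adds an offset of 50 to all signals and so compresses dim probes, the difference fell to 0.45 for CCN2 and -0.62 for AMOT. Both lost their call there.

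**Figure D3:**
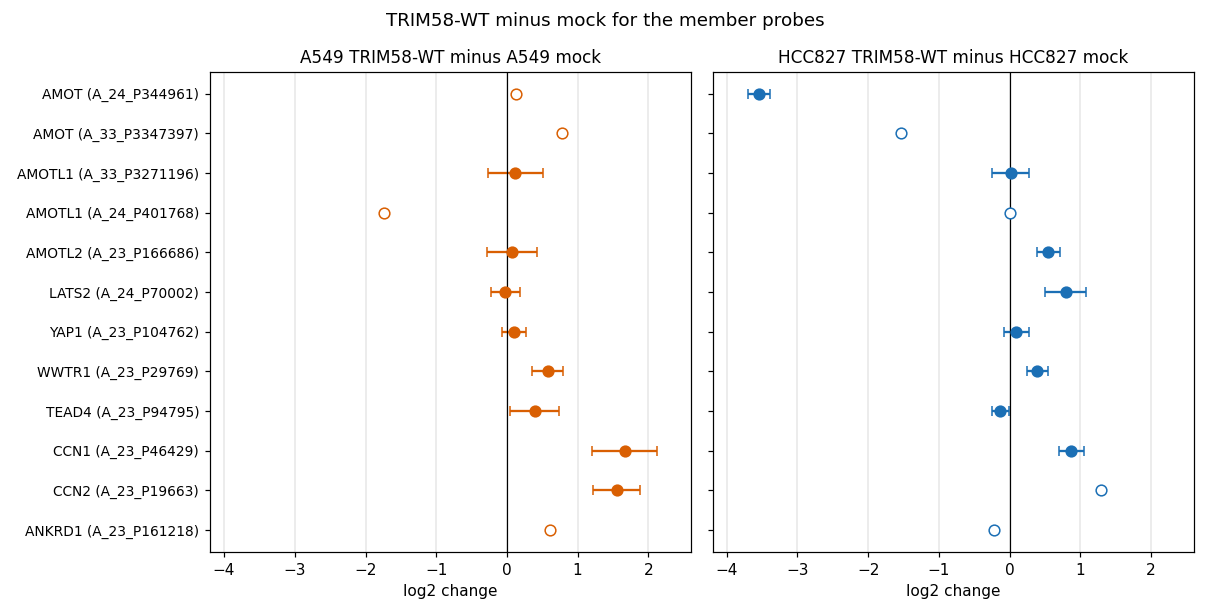
Log2 change between TRIM58-WT and mock for each of the 12 probes in A549 (left, 3 against 3 replicates) and HCC827 (right, 2 against 2). Filled points with bars of 1 SE were tested, and open points without bars were too dim. CCN1 lies to the right in both lines (1.67 and 0.87), CCN2 reaches 1.55 in A549, and AMOT (A_24_P344961) lies at -3.55 in HCC827 alone.

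The lists of other pathway genes, drawn from general knowledge and also chosen with earlier results of these samples known, place the members in the wider pathway. Of 17 other genes of a published YAP/TAZ target signature, 15 were tested in A549, and 5 rose and 1 fell with TRIM58-WT. This count of 6 of 15 stands beside 6.92% of all tested probes. The list median was 0.28, against 0.03 over all 11185 genes tested. The genes that rose were TGFB2, a growth factor of the TGF-β family (2.61, SE 0.48, adjusted p = 0.0256), FOXF2, a forkhead factor of mesenchyme (2.59, SE 0.35, adjusted p = 0.0108), and PTPN14, a phosphatase that binds YAP (1.73, SE 0.33, adjusted p = 0.0293). FJX1, a secreted homologue of the fly four-jointed protein (1.64, SE 0.33, adjusted p = 0.0327), and ARHGEF17, a guanine nucleotide exchange factor (1.47, SE 0.28, adjusted p = 0.0287), rose too. NT5E, the ecto-nucleotidase CD73, fell by 1.83 (SE 0.42, adjusted p = 0.0465).

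FOXF2 shows how these values lay by array. It read -0.61, -0.59, -0.30 and 0.70 on the A549 mock arrays and 2.28, 2.64 and 2.66 on the TRIM58-WT arrays, so that mock replicate 3 was the mock value nearest to TRIM58-WT, as for CCN1 and WWTR1. TGFB2 followed the same order, with mock values of -2.79, -2.98, -2.83 and -1.17, TRIM58-WT values of 0.01, 0.43 and 0.49, and 1 of 4 mock arrays well above background. TGFB2 thus passed the brightness filter only through TRIM58-WT. Mock replicate 3 was also the mock value nearest to TRIM58-WT for PTPN14, FJX1 and NT5E. The same held for LHFPL6, THBS1, WTIP and CRB3, which are named below. Some called genes did not follow this order. For EDN1, mock replicate 3 (4.42, against 4.12 to 4.21 on the other mock arrays) lay farthest from TRIM58-WT (3.01 to 3.13), and for ARHGEF17 the mock value nearest to TRIM58-WT was that of replicate 2 (2.05).

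The 15 further reported targets moved both ways in A549, with 3 rising and 5 falling of 15 tested and a list median of 0.05. Of all tested probes, 6.92% were called (3.49% higher and 3.43% lower). Among those that rose were LHFPL6, a tetraspan membrane protein gene (2.12, SE 0.44, adjusted p = 0.037), and THBS1, the matrix protein thrombospondin (1.503, SE 0.24, adjusted p = 0.017). DLC1, a gene often silenced in liver cancer, was at background on all TRIM58-WT arrays and at least 2.94-fold lower (adjusted p = 0.000585), at -4.96, -4.74 and -4.72 against -1.31 to -0.75 in mock. DLC1 passed the brightness filter only through mock, so its p-value compares mock with background. AREG, an EGF receptor ligand, fell by 2.15 (SE 0.25, adjusted p = 0.00658), BCL2L1, an inhibitor of apoptosis, by 1.24 (SE 0.15, adjusted p = 0.00717), EDN1, the vasoconstrictor endothelin, by 1.16 (SE 0.16, adjusted p = 0.0112), and CCND1, a cyclin of G1 phase, by 1.13 (SE 0.24, adjusted p = 0.0395).

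The further targets called in A549 did not share one direction, with THBS1 and LHFPL6 higher in TRIM58-WT and AREG, EDN1 and CCND1 among those lower. With each array's median subtracted in place of its 75th percentile, the signature list held 2 that rose and 2 that fell, so the excess of genes that rose was not kept. It held 3 and 0 with the replicate number as a block and 1 and 0 with no filter on dim probes. Without mock replicate 3, the signature list held 6 that rose and 2 that fell, and the further targets 3 and 4. The counts were smaller when other samples were left out. Without mock replicate 1 the signature list held 1 that rose and the further targets 2 that fell, without mock replicate 2 these were 1 and 4, and without TRIM58-WT replicate 2 they were 0 and 3. Without TRIM58-WT replicate 3 they were 0 and 2, and without TRIM58-WT replicate 1 the further targets held 1 that rose and 5 that fell. With TRIM58-WT replicates 2 and 3 averaged, which differed by less than the 2 arrays of mock replicate 1, no signature gene passed and 3 further targets fell. AREG passed under all 20 alternatives fitted with limma.

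**Figure D4:**
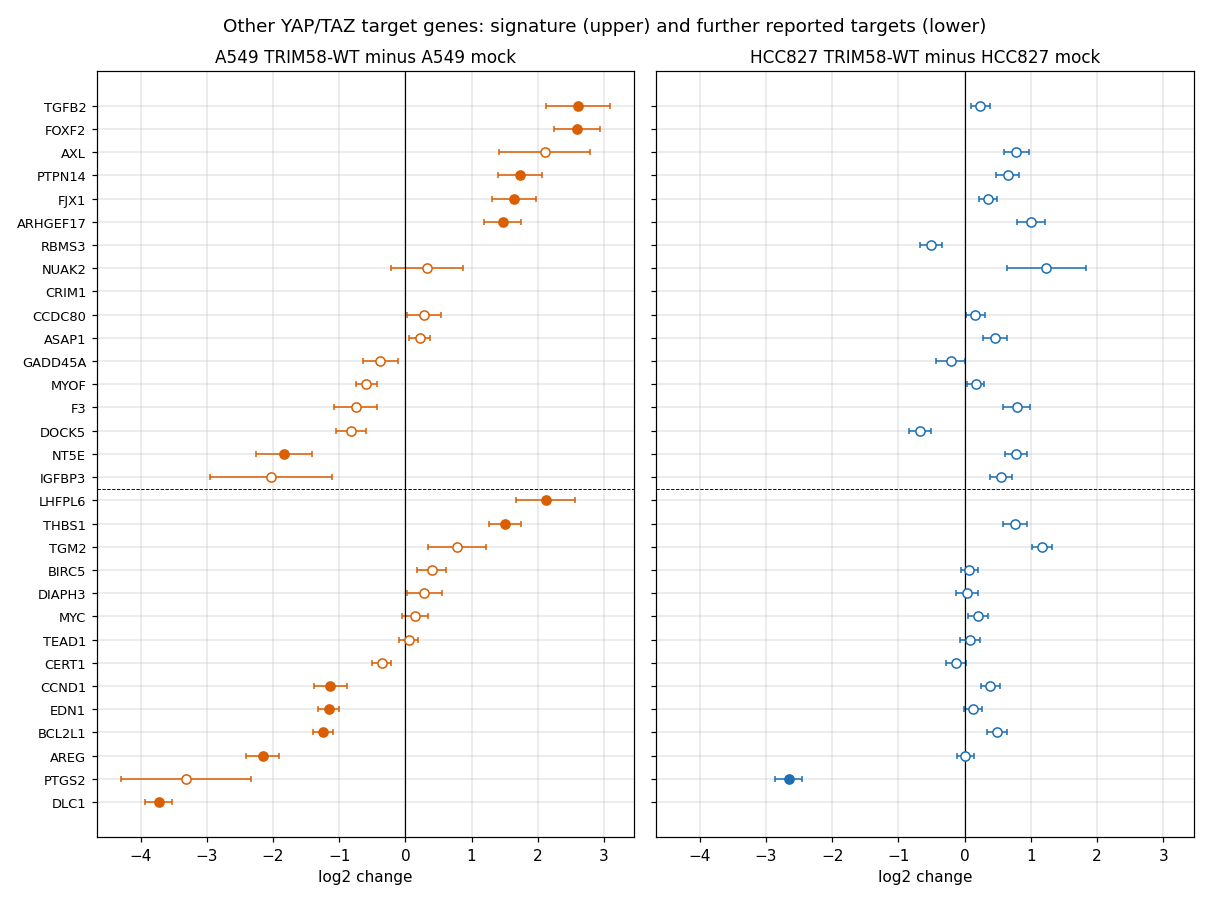
Log2 change between TRIM58-WT and mock with bars of 1 SE (limma) for genes of the target signature (above the dashed line) and of the further targets (below it), in A549 (left) and HCC827 (right) on the same axis. Filled points passed an adjusted p under 0.05 and a 2-fold change, open points did not, and genes without a point were too dim in that line. In A549, 7 of the genes drawn are filled to the right and 6 to the left, and in HCC827 PTGS2 alone is filled.

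In HCC827 none of the 15 signature genes tested was called, where 0.884% of all tested probes were called by limma. Of the 15, 8 had an unadjusted p under 0.05 in limma, as did 3981 of all 19563 probes tested. The list median was 0.46 against 0.01 over all 12182 genes. Of 12 further targets tested, 1 fell. This was PTGS2, the inducible cyclooxygenase, at -1.70 and -2.16 on the mock arrays against -4.53 and -4.64 on the TRIM58-WT arrays, where it was at background. PTGS2 passed the brightness filter only through mock, so its p-value compares mock with background. It was at least 2.71-fold lower (adjusted p = 0.034) and lost its call without any 1 of the 4 replicates (adjusted p up to 0.413 over the alternatives). THBS1 and ARHGEF17, which rose in A549, had values of 0.76 (SE 0.18, adjusted p = 0.136) and 1.00 (SE 0.20, adjusted p = 0.115) in HCC827 and did not pass.

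Upstream, 25 of 31 Hippo genes were tested in A549, and 2 rose and 1 fell, where 6.92% of all tested probes were called. The list median was -0.17. WTIP, a LIM protein of the AJUBA family that restrains LATS, rose by 2.02 (SE 0.37, adjusted p = 0.0252), and PTPN14, also counted above, was the other. CRB3, the Crumbs polarity protein of the apical membrane, fell by 3.16 (SE 0.55, adjusted p = 0.0224), from 2.95, 2.93, 3.15 and 1.66 on the mock arrays to 0.42, -1.11 and -1.04. Among the 22 that did not pass, STK3, a core kinase named here after its values were seen, missed the 2-fold limit, at -0.72 (SE 0.15, adjusted p = 0.0385). None of 5 TEAD and cofactor genes passed in limma, with 1 of them at an unadjusted p under 0.05, beside 4276 of all 16923 probes tested. Without mock replicate 3, 2 upstream genes rose and 2 fell and 1 TEAD or cofactor gene rose, and no upstream gene passed without mock replicate 1, mock replicate 2, TRIM58-WT replicate 2 or TRIM58-WT replicate 3.

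In HCC827, none of 27 upstream genes and none of 5 TEAD and cofactor genes passed, with list medians of 0.23 and 0.08. In limma, 6 of the 27 and 1 of the 5 had an unadjusted p under 0.05, beside 3981 of all 19563 probes tested. WTIP came nearest, at 1.36 (SE 0.15, adjusted p = 0.0522).

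**Figure D5:**
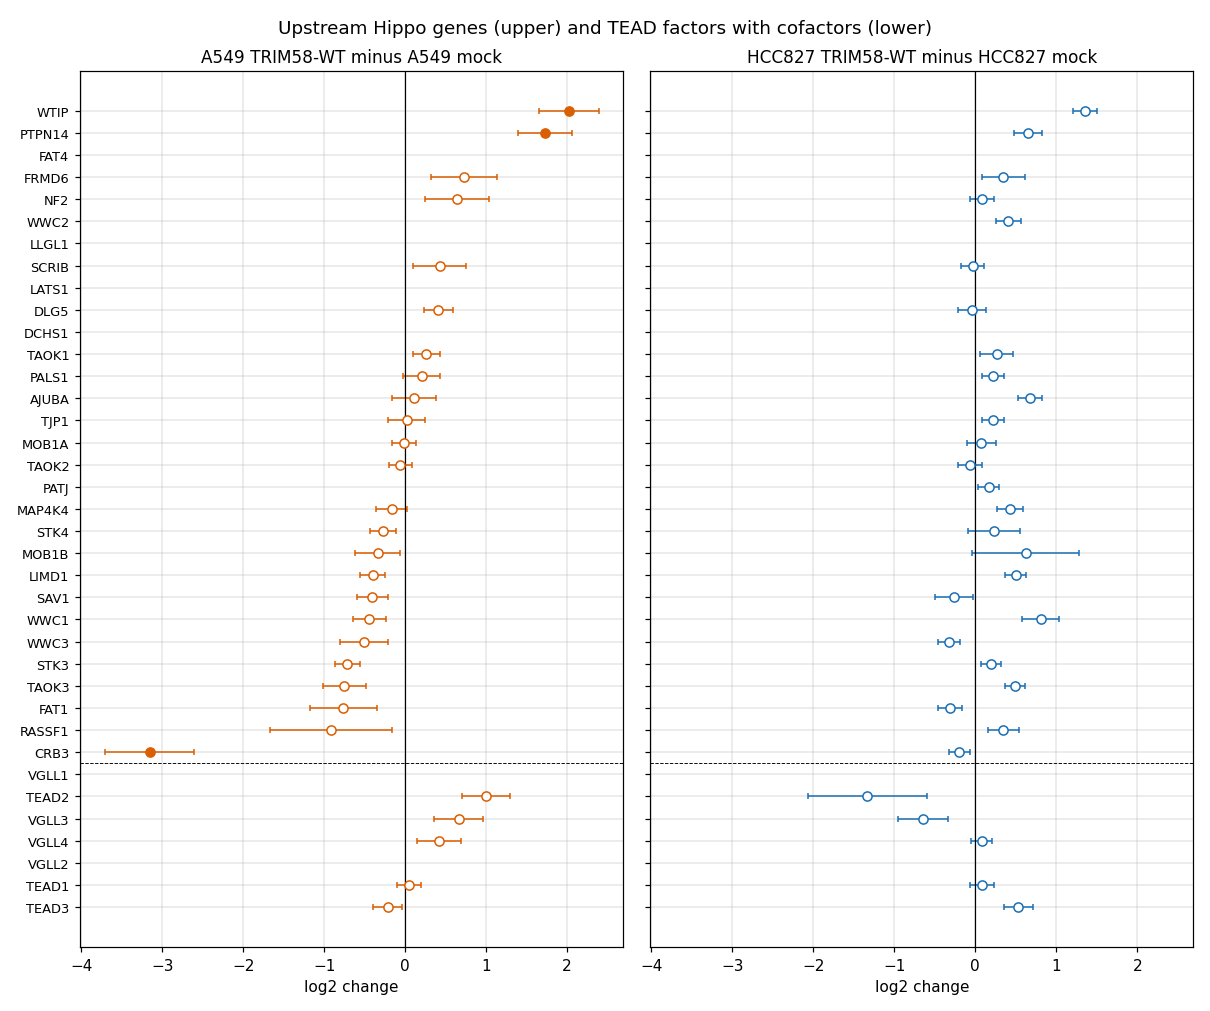
Log2 change between TRIM58-WT and mock with bars of 1 SE (limma) for upstream Hippo genes (above the dashed line) and 7 TEAD factors and cofactors (below it), in A549 (left) and HCC827 (right) on the same axis. Filled points passed an adjusted p under 0.05 and a 2-fold change, open points did not, and genes without a point were too dim. WTIP and PTPN14 are filled to the right and CRB3 to the left in A549, and none is filled in HCC827.

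Between the mock groups, 9 of 27 upstream genes, 1 of 5 TEAD and cofactor genes, 9 of 16 signature genes and 8 of 14 further targets were called, where 30.3% of all tested probes were called. The upstream and TEAD shares were near or below that background. TEAD1 belongs to both the TEAD list and the further targets and is counted in both. As A549 mock minus HCC827 mock on the log2 scale, FRMD6, an upstream activator of the cascade, stood at -1.87 (SE 0.34, adjusted p = 0.00941). WTIP was 2.75 higher in A549 mock (SE 0.40, adjusted p = 0.00474), and TEAD1 1.56 higher (SE 0.16, adjusted p = 0.00159). Among targets, F3, the coagulation initiator tissue factor, stood at -4.41 (SE 0.36, adjusted p = 0.000693), lower in A549 as CCN1 was, whereas EDN1 was 4.62 higher (SE 0.17, adjusted p = 8.02e-05) and TGM2, a protein cross-linking enzyme, 4.34 higher (SE 0.53, adjusted p = 0.00261).

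The other genes called between the mock groups, up to the 8 largest changes of a list, followed no single direction (adjusted p from 0.000177 to 0.0359). Upstream, TAOK2 (1.18) and LIMD1 (1.14) were higher in A549 mock, and AJUBA (-1.14), PALS1 (-1.28) and WWC2, at background in A549, were lower. In the signature, FOXF2 was at least 8.98-fold higher in A549 mock, and AXL (3.07), IGFBP3 (2.94), CCDC80 (2.64) and NUAK2 (2.53) were higher too, while FJX1 (-1.91) and RBMS3, at background in A549, were lower. Of the further targets, DLC1 was at least 4.47-fold and LHFPL6 at least 3.30-fold higher in A549 mock, PTGS2 was 2.88 higher, and CERT1 (-2.07) and MYC (-1.51) were lower. FOXF2, DLC1, LHFPL6, WWC2 and RBMS3 passed the brightness filter only through the line in which they were high. Their p-values therefore compare that line with background. Without mock replicate 3, 9 upstream genes, 10 signature genes and 8 further targets were called.

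Genes with a profile like that of AMOT were sought over the 10 replicates by the root mean square difference of centred log2 levels. For the detected probe A_24_P344961, a choice made after its values were seen, the 5 nearest of 12830 genes were CR2, a complement receptor (0.23), KISS1R, the kisspeptin receptor (0.24), MEDAG (0.25), HOXD1, a homeobox factor (0.27), and SLITRK6, a transmembrane protein of neurons (0.31). Each was well above background on both HCC827 mock arrays and on no other array, which is the pattern that chose them. For the brighter but undetected probe the nearest were HSD17B6 (0.32), ABCA4 (0.37), ZNF749 (0.37), LHX9 (0.43) and VCAN (0.46), and no gene was on both lists.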

How the data were processed

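RNA of the transfectants was labelled with 1 dye and hybridised to Agilent human arrays. Per the file headers, the authors extracted each spot's intensity with Agilent Feature Extraction 11.5.1.1 (the labels list 10.7), with background subtracted within each array and no scaling between arrays. A second deposited table, of log2 values processed by the authors, served only as an alternative. Per the labels, samples fall into 4 groups. Here, with R 4.3.3 and limma 3.58.1, outlier spots were left out, spots of a probe were averaged, and log2 values were set relative to the 75th percentile of their array. A probe counted as well above background when over 0.5 of its spots did, and was tested when 1 of the groups compared had this on all its arrays. limma's lmFit and eBayes were fitted to all such probes of each line, or of all 4 groups for the difference between lines, with Benjamini-Hochberg adjustment. Bounds ("at least") set the mean of the bright group against that of the dim group, with each dim value raised, where lower, to the lowest signal well above background on its array. The brightest probe stood for each listed gene, and of each list the genes called were named, up to the 8 largest changes per comparison. Of the probes, 27241 were named through RefSeq accessions (GRCh38.p14), and 28 probe values were missing after outliers were left out. Motifs were searched with Python 3.11.15, and figures were drawn with matplotlib 3.10.9. The steps were tested on simulated data. Members and lists were chosen with earlier results of these data known. Alternatives were other normalizations, background corrections, filters and tests, the slide or replicate number as a block, mock arrays 1-1 and 1-2 used singly or kept separate, and fits without each replicate in turn. The averaging of A549 TRIM58-WT replicates 2 and 3 was added after seeing the data. The number of arrays limits the precision. A few genes of the lists are included in the counts but are not reported by name here.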

Additional observations from a re-analysis of the deposited data

Results flagged for a closer look

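Among the other pathway genes, 5 changed differently in the 2 lines by the limma contrast of A549 change minus HCC827 change (adjusted p under 0.05, called for 3.86% of all tested probes). The contrast was 2.66 for FOXF2 (SE 0.49, adjusted p = 0.0239), -1.29 for EDN1 (SE 0.22, adjusted p = 0.0191), -2.17 for AREG (SE 0.34, adjusted p = 0.0142), -3.49 for DLC1 (SE 0.29, adjusted p = 0.000816) and -1.73 for BCL2L1 (SE 0.22, adjusted p = 0.00533). FOXF2 and DLC1 were not well above background on any HCC827 array. The FOXF2 contrast therefore compares a measured A549 change with background. DLC1 was well above background in A549 mock alone, so its A549 change is a bound and its p-value compares A549 mock with background. AREG read 4.56 to 4.66 in A549 mock, 1.95 to 2.81 in A549 TRIM58-WT and 5.32 to 5.39 on all HCC827 arrays, where mock and TRIM58-WT overlapped. BCL2L1 read 1.13 to 1.37 in A549 mock and -0.02 to 0.03 in A549 TRIM58-WT, but 0.69 and 0.79 in HCC827 mock and 1.34 and 1.104 in HCC827 TRIM58-WT. DLC1 and BCL2L1 passed under all alternatives run for this contrast, while FOXF2 and EDN1 lost their call in 11 each and AREG in 6. All 3 lost it without any 1 of the 4 HCC827 replicates. FOXF2 and EDN1 also lost it without A549 mock replicate 1, A549 TRIM58-WT replicate 2 or A549 TRIM58-WT replicate 3, and FOXF2 without A549 mock replicate 2.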

How the results depend on the processing

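No member changed direction where its value was called in any alternative run: of the member values recomputed, 578 moved by less than the spread between replicates and 27 by more. Most member values were not called, and several of these did change sign. In A549 this was so for AMOTL1 in 6 of 21 alternatives, AMOTL2 in 7 of 20, LATS2 in 3 of 20 and YAP1 in 2 of 20. For the difference between lines it was so for AMOTL1 (8 of 23), YAP1 (7 of 23), WWTR1 (2 of 23) and CCN2 (3 of 22). The number of probes called by limma in A549, 1171, became 507 with normexp background correction, 609 with no filter on dim probes, 673 with the filter applied to every array, 1801 with slide as a block and mock arrays 1-1 and 1-2 kept separate, 333 with TRIM58-WT replicates 2 and 3 averaged, and 297 to 2193 with 1 replicate left out. The highest of these was without mock replicate 3. An unmoderated t-test called 24 after adjustment, among them no gene of the pathway lists. Subtracting the median of each array in place of the 75th percentile moved the median of all A549 changes by -0.37, and the calls then split into 285 higher and 827 lower, against 591 and 580. In HCC827, the 173 calls became 633 with the median, 106 with normexp, 373 with the filter applied to every array, 0 with no filter, and 0 to 461 with 1 replicate left out. They became 0 without mock replicate 1 and without mock replicate 2. The t-test gave 343 at unadjusted p and 0 after adjustment. With limma, 3981 of 19563 probes tested had an unadjusted p under 0.05 in HCC827. The replicate numbers were shared between groups, but same-numbered samples did not all deviate together (correlations 0.50, -0.42 and 0.50 in A549 and 0.08 in HCC827), so the pairing was not used. With the replicate block, the counts were 1119 in A549, 0 in HCC827 and 323 for the difference between lines. That difference, 796 probes, became 527 with the median, 452 with no filter, 398 with the filter applied to every array, 1359 with the mock arrays separate, 1688 with slide as a block, 426 with TRIM58-WT replicates 2 and 3 averaged, and 224 to 2216 with 1 replicate left out. The 5906 calls between mock groups became 3045 with normexp, 3435 with the filter applied to every array, 3003 by the t-test after adjustment, and 3773 to 6800 with 1 replicate left out. Where a construction such as a smaller number of probes or samples does not show it, the cause was not tested. The changes of AMOT, CCN2 and ANKRD1 are limited by signal near background.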
